A study of Mus musculus with 6 samples.

Results

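Small nucleolar RNAs (snoRNAs) and the genes that carry them were followed in microglia, the macrophage population native to brain tissue, sorted from mice intended to lack QKI in these cells and from control mice. Rows of the deposited gene table whose symbol begins with Snora, Snord, Scarna or Snhg were taken, together with Gas5. The rule found 169 of 55421 rows, which carry 165 symbols. Of these rows, 99 were Snord, 42 Snora, 18 Snhg, 9 Scarna and 1 Gas5.

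The 3 libraries labelled KO came from C57BL/6 mice of 4 to 5 weeks with the genotype QKIflfl; Cx3cr1cre-ert2, a Cre-estrogen receptor fusion driven by the Cx3cr1 locus, which is active in microglia and other myeloid cells. The 3 libraries labelled WT came from QKIfl/fl mice of the same strain and age, which carry the floxed Qk alleles without the Cre. The Cre allele and the intended loss of QKI cannot be told apart in this design, and no tamoxifen treatment is given in the labels. Cells were freed of myelin on 30% percoll and sorted on CD45 and CD11B, and total RNA was sequenced. Separate animals are not named for the 3 libraries of a group, and p-values therefore reflect library-to-library spread, which may be technical.

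Most snoRNAs of mammals are cut out of the introns of other genes after splicing. Box C/D snoRNAs (Snord genes) guide 2′-O-methylation, and box H/ACA snoRNAs (Snora genes) guide pseudouridylation, mostly of ribosomal RNA in the nucleolus. The small Cajal body RNAs (Scarna genes) guide the same modifications on spliceosomal RNAs. Their hosts are often genes of ribosomal proteins and translation factors, and others are long noncoding RNAs, the Snhg genes and Gas5. Many of those noncoding hosts have a 5′ terminal oligopyrimidine tract, as ribosomal protein mRNAs do, and their spliced RNAs are commonly destroyed by nonsense-mediated decay.

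The deposited values are reads scaled by the authors to a common column sum of 34360040 to 34360054, here called normalised reads. They rest on 61977830 to 75013004 recovered reads in the libraries labelled KO and on 56988261 to 77199936 in those labelled WT, and 3 reads correspond to 1.34 to 1.81 normalised reads. Qk itself was higher in the libraries labelled KO, at 25951, 23859 and 24493 normalised reads, against 11180, 12556 and 11160 in those labelled WT (2.13-fold). The sum over its transcript thus goes against a loss of Qk RNA, and which exons the reads covered was not analysed here, so KO and WT below stand for the labels of the libraries. Neutrophil markers summed to 54.5, 79.8 and 117 normalised reads in the KO libraries and to 5323, 1886 and 16739 in the WT libraries. All 5 proliferation markers rose, with sums of 4164, 2576 and 3427 normalised reads in KO libraries and 1140, 623 and 778 in WT libraries. Of the marker lists for other cell types, 8 of 8 neuronal, 6 of 6 astrocyte, 3 of 6 oligodendrocyte and 4 of 5 endothelial genes fell with the deposited scaling, as did 6 of 9 microglial genes. Of all tested genes 11.3% rose and 23.4% fell in the same fit. With TMM factors, another scaling, 7 neuronal, 6 astrocyte, 3 oligodendrocyte and 3 endothelial genes fell. Of the microglial genes 5 then fell and 2 rose, beside 15.4% of all tested genes in each direction. The part of these shifts in the results that follow was not tested.

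The snoRNA sequences that the results turn on are shown here, from GENCODE M21 on GRCm38, 5′ to 3′, because the box motifs separate the classes. In the H/ACA members the capitals mark the ACA within the last 6 bases.
Snora65, chr2:32963291-32963420, plus strand, in Rpl12: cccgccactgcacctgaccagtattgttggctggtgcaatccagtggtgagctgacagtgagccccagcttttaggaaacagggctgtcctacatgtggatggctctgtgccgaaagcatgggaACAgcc
Snora70, chrX:74272484-74272620, plus strand, in Rpl10: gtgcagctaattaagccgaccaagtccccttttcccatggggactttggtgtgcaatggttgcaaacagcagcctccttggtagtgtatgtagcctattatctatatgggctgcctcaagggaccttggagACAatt
Snora64, chr17:24720772-24720905, plus strand, in Rps2: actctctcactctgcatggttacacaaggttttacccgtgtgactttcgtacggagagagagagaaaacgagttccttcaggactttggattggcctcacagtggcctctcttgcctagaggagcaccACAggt
Snora78, chr17:24719676-24719803, minus strand, in Snhg9: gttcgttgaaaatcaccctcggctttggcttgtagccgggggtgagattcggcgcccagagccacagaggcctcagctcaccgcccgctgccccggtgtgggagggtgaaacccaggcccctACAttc
Snora24, chr3:123507937-123508066, minus strand, in Snhg8: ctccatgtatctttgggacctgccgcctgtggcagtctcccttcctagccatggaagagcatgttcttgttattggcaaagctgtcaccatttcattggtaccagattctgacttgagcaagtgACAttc
Snora9, chr11:6528033-6528165, minus strand, in the GENCODE span of Snhg15: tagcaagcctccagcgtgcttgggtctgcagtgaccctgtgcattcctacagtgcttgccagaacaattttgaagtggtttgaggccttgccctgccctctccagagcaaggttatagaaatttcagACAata

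In the C/D members that follow, the capitals mark the box C core TGATGA where it stood in the first 25 bases, and the box D CTGA nearest the 3′ end within the last 25.
Snord22, chr19:8725866-8725991, plus strand, in Snhg1: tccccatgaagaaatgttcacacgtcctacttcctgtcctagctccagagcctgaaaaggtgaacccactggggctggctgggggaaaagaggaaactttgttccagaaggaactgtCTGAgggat
Snord96a, chr11:48802032-48802112, plus strand, in Rack1: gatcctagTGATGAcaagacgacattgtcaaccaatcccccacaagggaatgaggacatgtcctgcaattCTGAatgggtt
Snord34, chr7:45126601-45126670, minus strand, in Rpl13a: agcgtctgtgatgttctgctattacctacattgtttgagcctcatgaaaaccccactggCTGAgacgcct
Snord78, chr1:161036984-161037049, plus strand, in Gas5: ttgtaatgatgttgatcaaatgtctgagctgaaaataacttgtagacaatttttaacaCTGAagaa
Snord14c, chr9:40803583-40803668, plus strand, in Hspa8: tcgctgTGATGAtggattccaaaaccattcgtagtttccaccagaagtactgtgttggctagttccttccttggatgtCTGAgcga
Snord14d, chr9:40803995-40804080, plus strand, in Hspa8: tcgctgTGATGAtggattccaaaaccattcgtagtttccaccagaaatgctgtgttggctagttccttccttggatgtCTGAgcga
Snord14e, chr9:40804748-40804837, plus strand, in Hspa8: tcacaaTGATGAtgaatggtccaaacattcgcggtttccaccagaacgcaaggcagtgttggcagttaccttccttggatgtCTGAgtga
Over all 99 Snord rows, TGATGA stood in the first 25 bases of 70 and CTGA in the last 25 bases of 98, and 69 had both. ACA lay in the last 6 bases of 39 of 42 Snora rows and of 5 of 99 Snord rows, and no Snora row held TGATGA in its first 25 bases. All were searched on the transcript strand only.

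Of the 169 rows, 26 had no reads in any library, among them the 17 Snord116l copies of chromosome 7, and 13 more had a mean of 1 normalised read or less. Of the 130 rows with a mean above 1, 126 were tested, since 4 repeat a symbol. Their levels were low for most: 59 had a mean above 20 normalised reads and 17 above 100. Compared per kilobase of transcript, the median level of the tested Snhg genes was 302 normalised reads in KO and 183 in WT libraries. Gas5 stood at 2381 and 1578 per kilobase in the KO and the WT libraries. The median of the Snora genes was 178 per kilobase in KO and 117 in WT libraries, that of the Snord genes 145 in KO and 96.6 in WT, and that of the 4 tested Scarna genes 18.0 in KO and 14.1 in WT. The mature RNAs are shorter than the inserts of many RNA-seq libraries, and no label says that the protocol kept RNAs of that length, so these levels describe reads on each gene and not the amount of mature snoRNA.

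Host genes and snoRNA genes stood higher in the libraries labelled KO more often than lower. By limma with Benjamini-Hochberg adjustment over all 22472 tested genes, 32 of the 126 tested members rose and 1 fell at an adjusted p under 0.05. Among all tested genes 11.3% rose and 23.4% fell. The members' median log2 fold change was 0.46, against -0.15 for all tested genes, and 105 of the 126 were above 0. Every KO library lay above every WT library for 56 members and below for 3, against 15.7% and 32.2% of all tested genes. With TMM factors, which moved the median of all tested genes to -0.02, 38 members rose and 1 fell, beside 15.4% of all tested genes in each direction. edgeR on the recovered reads called 37 members higher and 1 lower, beside 15.0% and 14.9% of all tested genes. Of the 33 limma calls, 17 held with each library left out in turn. In bulk RNA, a change in the RNA per cell and a change in the share of the cells that express a gene cannot be told apart.

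By class, 9 of the 18 tested Snhg genes and Gas5 rose and 1 fell, and 12 of 37 Snora genes and 11 of 67 Snord genes rose. By limma 0 Snora and 0 Snord genes fell, and 0 of the 4 Scarna genes changed in either direction; these counts of 0 were the same at an unadjusted p under 0.05 and, at an adjusted p under 0.05, with TMM factors or edgeR. The class medians were 0.42 for Snhg and Gas5, 0.47 for Snora, 0.49 for Snord and 0.31 for Scarna on the log2 scale. The Snora and Snord medians were thus alike while the shares called were 32.4% and 16.4%. In the subset with a mean above 20 normalised reads, 9 of 20 Snora genes and 6 of 25 Snord genes rose. Of all 59 members above that level 24 rose, 40.7%, beside 15.3% of all tested genes above it. Below it, 8 of 67 members rose and 1 fell, the rises being 11.9%, beside 3.54% of tested genes with a mean of 1 to 20.

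The Snora rows summed to 1685, 2052 and 1612 normalised reads in the KO libraries and to 1040, 1043 and 965 in the WT libraries, and the groups did not overlap. The Snhg rows summed to 13382, 14948 and 12872 in KO and to 9245, 8388 and 8052 in WT libraries, also without overlap. The Snord rows summed to 1897, 2256 and 1937 in KO and to 1381, 1792 and 1809 in WT libraries, where the groups lay close to each other. The Scarna rows summed to 21.5, 26.6 and 22.0 in KO and to 24.3, 13.8 and 19.9 in WT libraries, which overlapped.

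**Figure D1:**
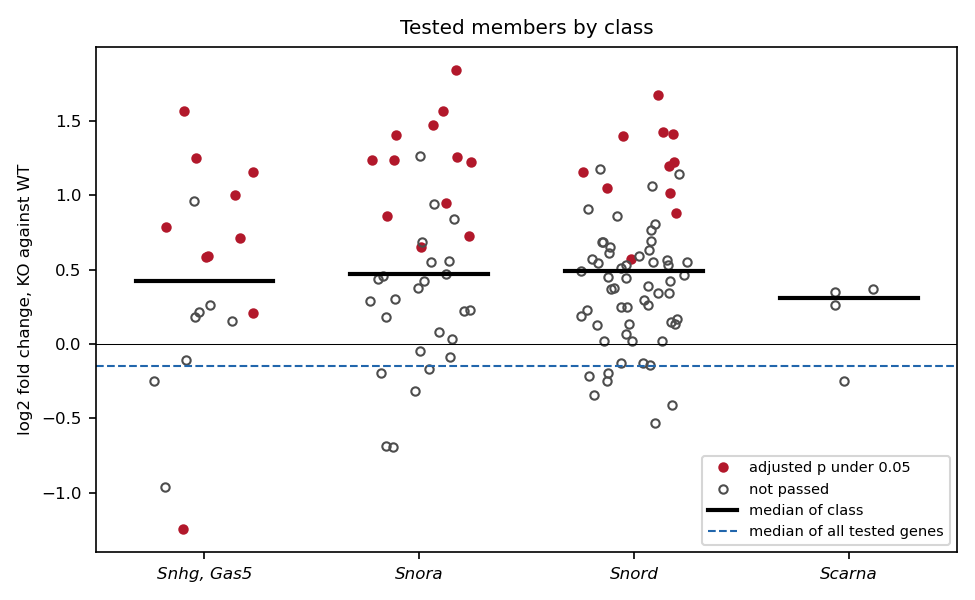
Log2 fold changes, KO against WT, on log2(normalised reads + 1), of the 126 tested members by class; filled points passed an adjusted p of 0.05 (limma), open points did not, and black bars are class medians. The medians of the 4 classes lie between 0.31 and 0.49, above the dashed line at -0.15 for all tested genes, and the only filled point below 0 is Snhg11.

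Among the Snhg genes, Snhg15, which in GENCODE spans the H/ACA snoRNA Snora9, changed most. It had 1286, 2188 and 1589 normalised reads in KO libraries and 507, 639 and 526 in WT libraries (log2 fold change 1.57, SE 0.17, adjusted p = 5.2e-05). The lowest KO library held more than the highest WT library, and the ratio of the means was 3.03. In the authors' deposited table its log2 fold change was 1.74, and it is the 1 member among the 503 rows of their list of changed genes. By adjusted p under 0.05 alone, 26 member rows were higher and 0 lower in the authors' deposited table. The share of all rows passing in that way was not counted, so these counts cannot be set against the whole table.

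Snhg8, a short noncoding host with Snora24 in it, had 1347, 1446 and 1243 normalised reads in KO libraries and 755, 431 and 544 in WT libraries (log2 fold change 1.26, SE 0.17, adjusted p = 0.000238). Snhg1, the host of Snord22, had 2687, 2704 and 1937 normalised reads in KO libraries, against 1346, 985 and 950 in WT libraries (log2 fold change 1.16, SE 0.15, adjusted p = 0.000236). Snhg12, which carries 4 tested snoRNAs of both classes, had 2151, 2493 and 2110 normalised reads in KO libraries and 1442, 1372 and 1115 in WT libraries (log2 fold change 0.79, SE 0.11, adjusted p = 0.00028). In all of them the groups were apart in every library. Gas5, a growth-arrest transcript and host of C/D snoRNAs, had 5572, 7003 and 5629 normalised reads in KO libraries and 4472, 3744 and 3852 in WT libraries (log2 fold change 0.59, SE 0.10, adjusted p = 0.0014). Its groups did not overlap either.

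Snhg5 averaged 953 ± 75 normalised reads in KO and 581 ± 66.7 in WT libraries (SD, n = 3 each; log2 fold change 0.72, adjusted p = 0.000425). Snhg6 averaged 309 ± 26.7 and 205 ± 25.4 in KO and WT libraries (SD, n = 3 each; log2 fold change 0.59, adjusted p = 0.00522). These are the hosts of C/D snoRNAs known in human as U50 and U87. Snhg9 had 49.0, 65.4 and 48.8 in KO and 36.0, 16.9 and 30.2 in WT libraries (log2 fold change 1.0, SE 0.30, adjusted p = 0.0257), and its call was lost without KO B, KO C or WT B. Snhg4, annotated as protein coding in the deposited table, rose by the smallest amount, with 2458, 2582 and 2502 in KO and 2178, 2270 and 2089 in WT libraries (log2 fold change 0.21, SE 0.07, adjusted p = 0.0372). That call was lost when any library other than WT B was left out. Another row with the symbol Snhg4, annotated as lncRNA, was left out of the main fit as a repeat. It had 61.38, 82.05 and 82.5 normalised reads in KO and 43.05, 31.6 and 41.6 in WT libraries, without overlap.

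Not every abundant host passed. Snhg16 averaged 435 ± 22.2 normalised reads in KO and 362 ± 4.87 in WT libraries (SD, n = 3 each), with an adjusted p of 0.0529, against 0.034 with the library letters as a block. The block setting called 9378 of all 22472 tested genes in either direction. Snhg17 averaged 809 ± 35.7 in KO and 712 ± 58.8 in WT libraries (adjusted p = 0.137). Both passed with TMM factors, at adjusted p = 0.00778 and 0.0111. Snhg20 (log2 fold change 0.15) and Snhg14 (-0.25), the host of the Snord115 and Snord116 clusters of the Prader-Willi region, did not pass with either scaling, although Snhg14 fell without WT C (adjusted p = 0.0261). The deposited Snhg14 row covers chr7:59307924-59324149, and the Snord116l rows lie outside it. Its value therefore does not cover that part of the locus. Snhg3, which carries the H/ACA snoRNAs Snora73a and Snora73b (U17), had 156, 129 and 135 in KO and 182, 146 and 127 in WT libraries. Its groups overlapped, and its log2 fold change was -0.10 with the deposited scaling and 0.03 with TMM factors. Snora73a and Snora73b had log2 fold changes of 0.22 and -0.32 with SEs of 0.30 and 0.35, and neither passed.

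**Figure D2:**
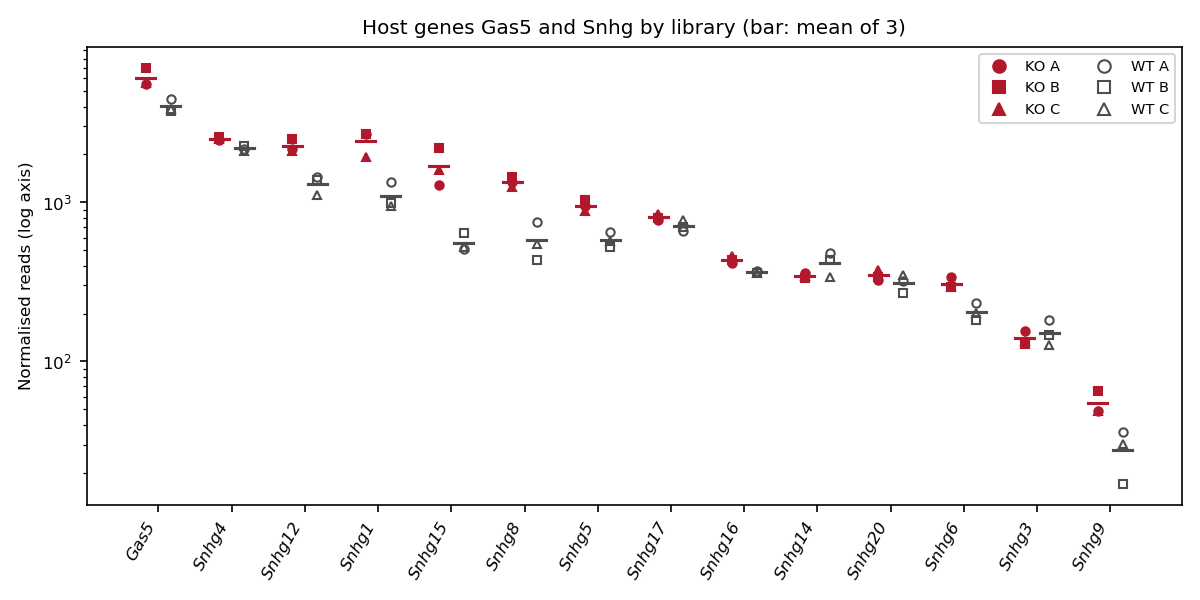
Normalised reads (log axis) of Gas5 and the Snhg genes with a mean above 20, 1 marker shape per library letter, filled for KO and open for WT, with bars at the mean of 3 libraries. KO and WT markers are apart for Snhg15, Snhg8 and Snhg1, whose ratios of means are 3.03, 2.33 and 2.23, and they overlap for Snhg3 and Snhg20.

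The 1 member that fell was Snhg11, a transcript enriched in neurons and annotated as protein coding in the deposited table, which was singled out after its values were seen. It had 10.1, 9.98 and 4.69 normalised reads in KO libraries and 23.3, 17.8 and 19.3 in WT libraries (log2 fold change -1.25, SE 0.37, adjusted p = 0.024). The summed neuronal markers were also lower, at 66.9, 72.6 and 64.7 in KO and 191, 207 and 295 in WT libraries, and their part in the value of Snhg11 was not tested. The call was lost without KO C or without WT A, and under DESeq2.

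Several H/ACA snoRNA genes, printed above, stood higher in every KO library. Snora65, the highest Snora gene per kilobase and inside the ribosomal protein gene Rpl12, had 248, 292 and 286 normalised reads in KO libraries and 150, 155 and 147 in WT libraries (log2 fold change 0.86, SE 0.12, adjusted p = 0.000366). Snora70, inside Rpl10, had 246, 283 and 177 in KO libraries and 117, 81.0 and 97.1 in WT libraries (log2 fold change 1.24, SE 0.20, adjusted p = 0.000862). Snora64, inside Rps2, had 90.2, 108 and 68.4 in KO libraries and 26.3, 26.7 and 33.8 in WT libraries (log2 fold change 1.57, SE 0.24, adjusted p = 0.000535). In all 3 the groups did not overlap, and the hosts rose too, Rpl12 by a log2 fold change of 1.48, Rpl10 by 1.05 and Rps2 by 1.17. Snora65 overlaps an exon of the deposited Rpl12 transcript, so reads of that host count on it as well, while Snora70 and Snora64 overlap no exon of the deposited transcripts of theirs. Reads of unspliced host RNA may still count on rows without such an overlap, which was not examined.

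Snora9 had 95.3, 145 and 124 normalised reads in KO libraries and 37.0, 56.5 and 42.2 in WT libraries (log2 fold change 1.41, SE 0.23, adjusted p = 0.000858). It lies outside the Snhg15 transcript of the deposited table, so the snoRNA row and that transcript share no bases. In GENCODE it overlaps an exon of Snhg15, so reads of other Snhg15 transcripts may count on Snora9. No sample overlapped between the groups. Snora78, in an intron of Snhg9, had 40.3, 58.2 and 38.0 in KO libraries and 20.3, 11.1 and 16.3 in WT libraries (log2 fold change 1.47, SE 0.31, adjusted p = 0.00408). Snora24 had 99.9, 121 and 95.6 in KO libraries and 67.9, 28.9 and 44.0 in WT libraries (log2 fold change 1.23, SE 0.28, adjusted p = 0.00683), and like Snora65 it overlaps an exon of its host, here Snhg8. In all of these the groups stood apart. Snora31, inside the growth-related gene Tpt1, and Snora61, inside Snhg12, rose by log2 fold changes of 0.95 (SE 0.21, adjusted p = 0.00618) and 0.73 (SE 0.20, adjusted p = 0.0182), the call of Snora61 being lost without KO B or without WT C. Snora81, inside the translation initiation factor gene Eif4a2, had 98.5, 121 and 64.2 in KO and 76.0, 69.0 and 66.3 in WT libraries, which overlapped (adjusted p = 0.24).

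Among C/D snoRNA genes with a mean above 20, Snord22 (U22) changed most. It had 149, 165 and 110 normalised reads in KO libraries and 63.3, 41.4 and 52.5 in WT libraries (log2 fold change 1.42, SE 0.22, adjusted p = 0.00066), without overlap. It too overlaps an exon of its host's deposited transcript, that of Snhg1. Snord96a, inside Rack1, a ribosome-bound scaffold, had 93.0, 99.2 and 94.2 in KO libraries and 59.3, 62.3 and 70.5 in WT libraries (log2 fold change 0.57, SE 0.17, adjusted p = 0.0236), also without overlap, but the call was lost when any library other than WT C was left out. Snord78, inside Gas5, had 91.2, 101 and 66.6 in KO and 81.0, 60.5 and 31.4 in WT libraries, where the groups overlapped. Its adjusted p was 0.142 without and 0.0308 with the library letters as a block. Snord100, inside Rps12, had 66.4, 101 and 68.9 in KO and 51.2, 49.4 and 64.5 in WT libraries, which were apart by a small gap (adjusted p = 0.113). Snord96a, Snord78 and Snord100 overlap exons of their hosts' deposited transcripts as well.

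Low rows passed as well. Snord57, inside Nop56, a core protein gene of the C/D particle, had 7.79, 12.2 and 8.91 normalised reads in KO libraries and 2.03, 3.12 and 1.81 in WT libraries (log2 fold change 1.68, SE 0.41, adjusted p = 0.00942). Its WT values are near the level of 3 reads, and it overlaps an exon of the deposited Nop56 transcript, so reads of Nop56 count on it as well. Snora75, inside Ncl, the gene of the nucleolar protein nucleolin, had 10.1, 17.2 and 13.1 in KO and 5.57, 4.45 and 4.82 in WT libraries (log2 fold change 1.26, adjusted p = 0.0226), a call lost without KO B, KO C or WT B. Both rows were chosen after their values were seen, for hosts that belong to the nucleolar machinery. The other snoRNA genes that rose were Snora44 and Snord99 (in Snhg12), Snora62 (in Rpsa), Snord83b and Snord43 (in Rpl3), Snord19 and Snord69 (in Gnl3), Snord2 (in Eif4a2), Snord59a (in Atp5b) and Snora57, for which no tested containing gene was found on the same strand. Their log2 fold changes lay between 0.66 and 1.84, their groups did not overlap, and of these 10 calls only that of Snord83b held with each library left out. The independently transcribed Snord118 (U8), which acts in the processing of 5.8S and 28S rRNA, stood at 2.75, 1.11 and 1.41 in KO and 1.52, 1.34 and 1.81 in WT libraries, at the level of a few reads, so that a difference was not detectable at this depth. Of the 4 Scarna genes tested, Scarna2 was the highest, at 11.9, 15.0 and 10.3 in KO and 13.2, 5.79 and 10.3 in WT libraries, which overlapped (log2 fold change 0.37, SE 0.38). Scarna6, Scarna13 and Scarna3a averaged below 7 normalised reads in each group.

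**Figure D3:**
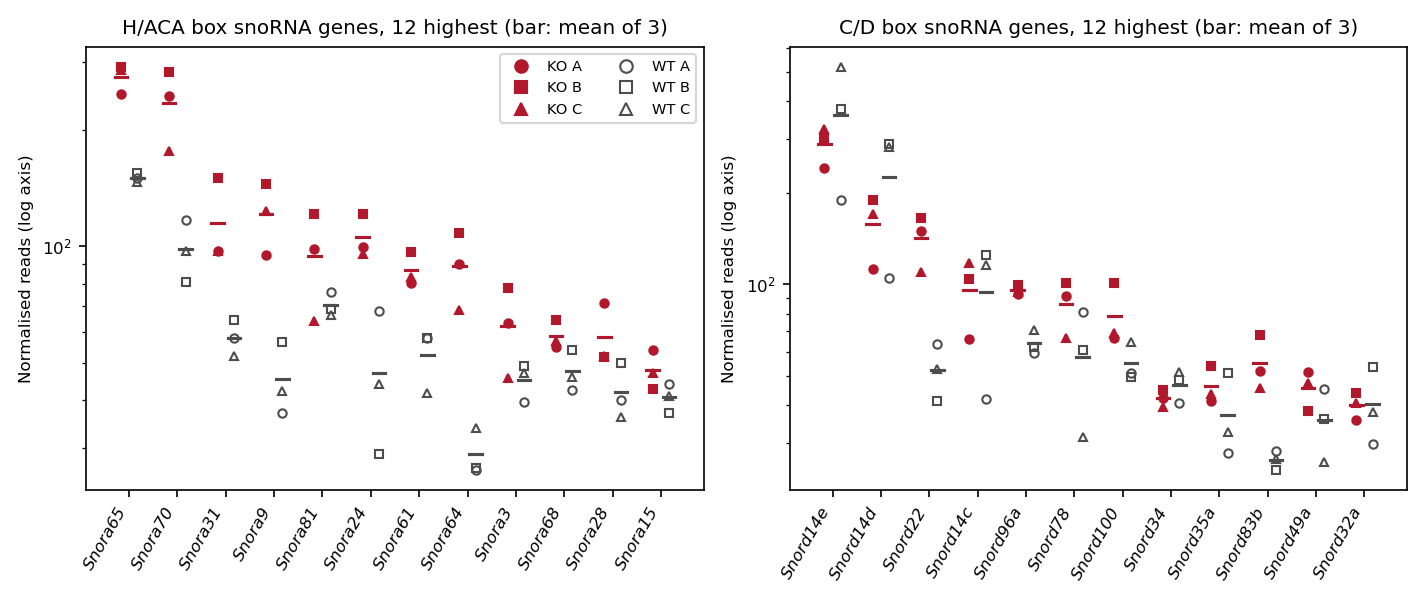
Normalised reads (log axis) of the 12 highest Snora and the 12 highest Snord genes, filled markers for KO and open for WT, 1 shape per library letter, with bars at the mean of 3 libraries. KO markers lie above WT markers for Snora65, Snora70 and Snord22, and the groups overlap for Snord14e, Snord14d, Snord14c and Snord34.

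Since a host and the snoRNA in it begin as 1 transcript, each tested snoRNA or scaRNA was set beside the gene on its strand whose deposited interval contains it. Such a gene was tested for 100 of the 108, in 72 genes. All 25 ribosomal protein genes among them rose (Rack1 and Rpsa counted with them), with a median log2 fold change of 1.17. Of the 11 that are Snhg genes or Gas5, 8 rose, with a median of 0.59, and of the 36 other genes 14 rose and 1, the clathrin adaptor gene Ap1g1, fell, with a median of 0.19. All of these containing genes but Snhg10 had a mean above 20. Of all tested genes with such means, 15.3% rose and 30.7% fell. The 35 snoRNAs inside ribosomal protein genes changed less than those genes: their median log2 fold change was 0.53, the median of the differences to the host was -0.62, and 5 of 35 exceeded their host. Of these 35, 8 rose, beside 11.3% of all tested genes. The 20 inside Snhg genes or Gas5 had a median of 0.68, a median difference of 0.03, and 10 of 20 exceeded their host. Kinds were set by symbol, so noncoding hosts with other names, such as Zfas1 described below, stand among the other genes. The values for Snhg genes and Gas5 thus do not describe noncoding hosts in general. The 45 inside other genes had a median of 0.30 and a median difference of -0.0048, but for the 15 of them with a mean above 20 normalised reads the median difference was -0.41, and 5 of 15 exceeded their host. With the same minimum the median difference was -0.70 in ribosomal protein genes, where 3 of 17 exceeded their host, and 0.06 in Snhg genes or Gas5, where 6 of 11 did. Over all 100 the median difference was -0.21, on a log2(value + 1) scale that understates the changes of low rows. No test was made of these differences, since snoRNAs in 1 gene share their host.

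The sums per library follow the same order. The snoRNAs inside ribosomal protein genes summed to 1433, 1675 and 1316 normalised reads in KO libraries and to 904, 934 and 882 in WT libraries, a ratio of means of 1.63, beside 2.25 for the genes themselves. Per 1000 reads of these genes, they had 2.81, 3.68 and 2.81 reads in KO libraries and 3.87, 4.90 and 4.13 in WT libraries, and the groups did not overlap. Inside Snhg genes or Gas5, the snoRNAs summed to 713, 832 and 623 in KO libraries and to 476, 377 and 332 in WT libraries. That was a ratio of 1.83, beside 1.57 for the hosts, and the reads per 1000 host reads were 44.2, 45.7 and 40.8 in KO and 40.8, 37.6 and 33.7 in WT libraries. Inside other genes they summed to 1194, 1520 and 1349 in KO libraries and to 907, 1386 and 1439 in WT libraries, which overlapped, a ratio of 1.09 beside 1.30 for the hosts. Without Hspa8 and its 3 snoRNAs, described below, the ratio was 1.44 beside 1.38. Across the 20 pairs inside Snhg genes or Gas5, the log2 fold changes of snoRNA and host had a Pearson r of 0.74 and a Spearman rho of 0.74, and across all 100 pairs 0.37 and 0.39. These describe genes, several of which share a host and all of which share the 6 libraries. Of the 100, 19 overlap an exon of the deposited host transcript, where reads of the host count on the snoRNA as well; Pearson's r was 0.33 over these 19 and 0.36 over the other 81. Of those 19, 9 rose, with a median log2 fold change of 0.66, and of the other 81, 12 rose, with a median of 0.42, beside 11.3% of all tested genes. More of the 100, 57, overlap an exon of some GENCODE transcript of the containing gene, whose reads may count on the snoRNA too. Of these 57, 15 rose, and Pearson's r was 0.26. Of the 43 without such an overlap 6 rose, and Pearson's r was 0.50. Among the 20 pairs inside Snhg genes or Gas5, those of Snord22, Snora24 and Snord78 overlap exons of the deposited host transcript. Their r of 0.74 was not split by overlap. Reads of unspliced host RNA may also count on snoRNAs without an exon overlap, which was not examined.

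**Figure D4:**
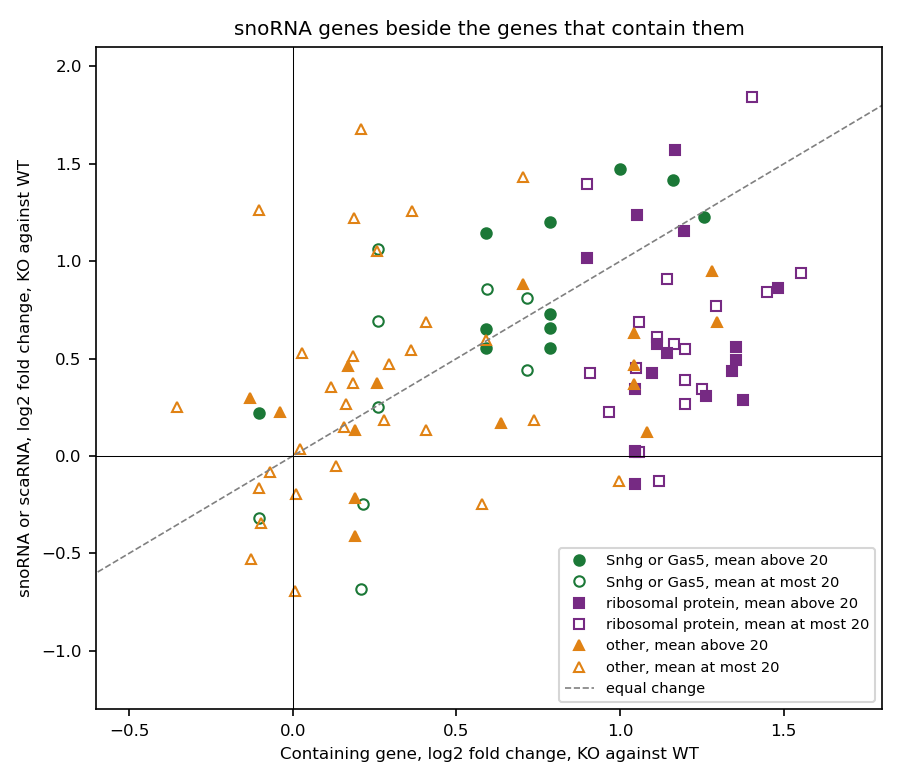
Log2 fold change, KO against WT, of 100 snoRNA or scaRNA genes (vertical) against that of the gene containing each (horizontal), coloured by kind of containing gene, filled above and open at or below a mean of 20 normalised reads. Most points inside ribosomal protein genes lie below the dashed line of equal change, 5 of 35 being above it, and of those inside Snhg genes or Gas5 10 of 20 lie above it.

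Rpl13a, a ribosomal protein gene with 4 tested C/D snoRNAs outside the exons of its deposited transcript, is an example, picked after its values were seen. The gene had 26724, 23062 and 24449 normalised reads in KO libraries and 13569, 10426 and 12148 in WT libraries (log2 fold change 1.04, SE 0.10, adjusted p = 2.56e-05). Snord34 had 42.1, 44.9 and 39.4 in KO and 40.5, 48.5 and 51.3 in WT libraries (log2 fold change -0.14, SE 0.21, adjusted p = 0.652), with overlap. The log2 fold changes of Snord32a, Snord33 and Snord35a were 0.02, 0.02 and 0.34, with SEs of 0.26, 0.26 and 0.27, and none passed. The 4 together summed to 155, 184 and 150 in KO libraries and to 136, 188 and 150 in WT libraries. Per 1000 reads of Rpl13a they had 5.81, 7.98 and 6.12 in KO and 10, 18.1 and 12.4 in WT libraries, without overlap. A like pair stood at Zfas1, a noncoding host whose log2 fold change was 1.08, with Snord12 inside it at 0.13 (SE 0.29), also picked after its values were seen.

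Snord14e and Snord14d, the highest Snord genes per kilobase, lie with Snord14c in Hspa8, the gene of the constitutive chaperone Hsc70. Snord14e had 240, 300 and 325 normalised reads in KO libraries and 189, 376 and 517 in WT libraries. Snord14d had 112, 189 and 171 in KO libraries and 105, 289 and 283 in WT libraries. Snord14c had 66.0, 104 and 118 in KO libraries and 42.0, 125 and 116 in WT libraries. In both groups the library with the letter A was the lowest for all 3, and the groups overlapped. Hspa8 followed, with 79498, 96628 and 99762 in KO libraries and 61555, 93305 and 90078 in WT libraries (log2 fold change 0.19, adjusted p = 0.384), and the 3 snoRNAs overlap exons of its deposited transcript. Their log2 fold changes were -0.22 for Snord14e, -0.41 for Snord14d and 0.13 for Snord14c, with SEs of 0.29, 0.35 and 0.38, and none passed. Without WT A, Snord14d and Snord14e fell, at adjusted p = 0.0126 and 0.0256. Snord14c and Snord14d, printed above, are identical at 84 of 86 aligned positions, so reads within the shared stretches cannot be assigned to 1 of them. Snord14a, the copy inside the ribosomal protein gene Rps13, is 78.0% to 82.6% identical to the copies in Hspa8 overlaps an exon of Rps13 and rose, with 39.9, 43.8 and 25.3 in KO and 21.8, 16.0 and 10.3 in WT libraries (log2 fold change 1.15, SE 0.34, adjusted p = 0.0248), a call lost without KO A, KO B or WT C.

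**Figure D5:**
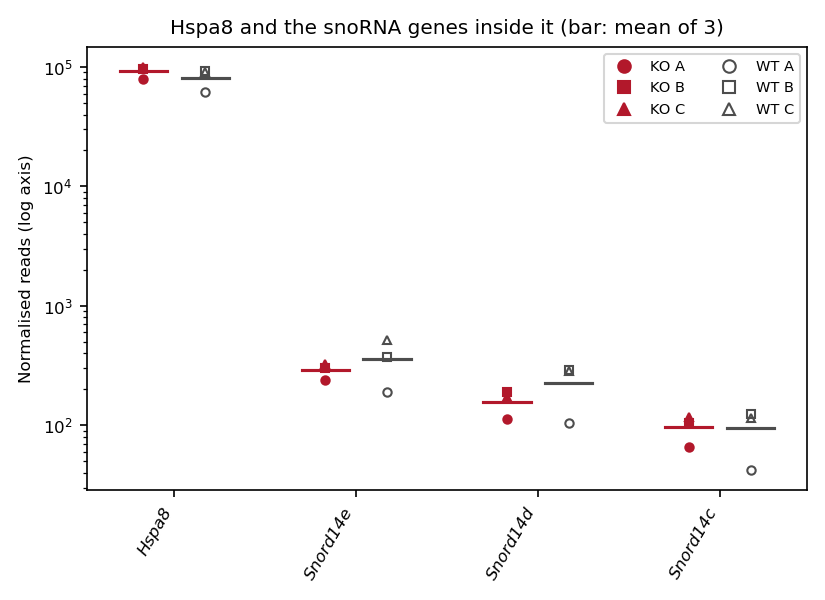
Normalised reads (log axis) of Hspa8 and of Snord14e, Snord14d and Snord14c inside it, filled markers for KO and open for WT, 1 shape per library letter, with bars at the mean of 3 libraries. Letter A is lowest in both groups for all 4 genes, with Snord14c at 66.0 in KO A and 42.0 in WT A.

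Genes for the proteins of the snoRNA particles, their processing and rRNA synthesis were followed from lists, all of whose tested genes had means above 20 normalised reads. Of all tested genes with such means, 15.3% rose and 30.7% fell with the deposited scaling, and 21.3% rose and 19.7% fell with TMM factors. Fibrillarin, the methyltransferase gene Fbl, had 2765, 3031 and 2588 normalised reads in KO libraries and 1602, 1633 and 1501 in WT libraries (log2 fold change 0.82, SE 0.08, adjusted p = 2.51e-05). Of its partners, Nop58 (log2 fold change 0.32, adjusted p = 0.0118) and Nop56 (0.21, adjusted p = 0.036; lost without KO B, KO C, WT A or WT C) rose and Snu13 (0.10, adjusted p = 0.435) did not pass, so that 3 of 4 rose. Of the 4 H/ACA core genes 1 rose, Nop10, with 551, 509 and 537 in KO libraries and 431, 325 and 405 in WT libraries (log2 fold change 0.47, adjusted p = 0.0102). The pseudouridine synthase gene Dkc1 had 879, 769 and 817 in KO and 807, 864 and 768 in WT libraries, which overlapped (log2 fold change 0.01, SE 0.09). Gar1 and Nhp2 had log2 fold changes of 0.30 and 0.17 and passed with TMM factors, at adjusted p = 0.0242 and 0.0358; with the library letters as a block Gar1 passed too, at adjusted p = 0.0271.

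Of 10 genes for the assembly of these particles, 0 changed by limma at an adjusted p under 0.05; 4 were lower and 0 higher at an unadjusted p under 0.05, while 2 rose with TMM factors and 2 with edgeR, so that their direction depends on the scaling. With the library letters as a block, which called 9378 of all 22472 tested genes, Pih1d1 and Znhit3 fell, at adjusted p = 0.0132 and 0.033. Of 12 genes for snoRNA processing, debranching and capping 5 fell and 0 rose by limma (7 and 0 at an unadjusted p under 0.05), and 3 fell and 0 rose with TMM factors and with edgeR, counts to be read beside the 30.7% and 19.7% of genes at this level that fell with the deposited scaling and with TMM factors. Phax, an adaptor that carries capped snoRNA precursors within the nucleus, averaged 649 ± 32 normalised reads in KO and 936 ± 27.9 in WT libraries (SD, n = 3 each; log2 fold change -0.53, adjusted p = 0.000604). The cap-binding genes Ncbp2 and Ncbp1 and the nuclear exosome nuclease gene Exosc10 fell by 0.51, 0.28 and 0.39 on the log2 scale, the fall of Ncbp1 not passing with TMM factors (adjusted p = 0.151). The 5th was Dbr1, the enzyme that opens intron lariats, which fell by 0.39 and did not pass with TMM factors (adjusted p = 0.11). Of 3 Cajal body genes 0 changed by limma with either scaling or by edgeR, nor any at an unadjusted p under 0.05.

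Of 15 genes of nonsense-mediated decay, 5 fell and 0 rose by limma (5 and 1 at an unadjusted p under 0.05), while with TMM factors and with edgeR 3 fell and 2 rose, so that the split depends on the scaling. These 5 of 15 and 3 of 15 are near the shares of all tested genes with means above 20 that fell, 30.7% and 19.7%. Smg8, Smg9 and the helicase gene Upf1 fell by 0.57, 0.38 and 0.37 on the log2 scale and passed with both scalings, and Eif4a3 of the exon junction complex fell by 0.24 and did not pass with TMM factors (adjusted p = 0.228). Of 14 genes of RNA polymerase I transcription and rRNA processing 5 rose and 1 fell, and with TMM factors 7 rose and 0 fell. Among them, Myc, which drives ribosome synthesis, had 7732, 8878 and 9600 normalised reads in KO libraries and 3252, 3831 and 3340 in WT libraries (log2 fold change 1.33, SE 0.09, adjusted p = 2.81e-06). Npm1, a nucleolar chaperone gene, had a log2 fold change of 0.84, Ncl 0.36 and the ribosome assembly gene Pes1 0.33.

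Because many hosts carry a pyrimidine tract at the start of their RNA, the annotated starts were read from the RefSeq promoter table for GRCm38.p6. The stretches shown run from 30 bases before the start on, 60 bases in all on the transcribed strand, with the longest run of only C and T near the start in capitals.
Gas5, chr1:161035136-161035195, plus strand: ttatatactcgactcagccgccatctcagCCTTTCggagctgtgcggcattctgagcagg
Snhg1, chr19:8723457-8723516, plus strand: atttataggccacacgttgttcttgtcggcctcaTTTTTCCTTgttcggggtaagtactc
Snhg12, chr4:132308648-132308707, plus strand: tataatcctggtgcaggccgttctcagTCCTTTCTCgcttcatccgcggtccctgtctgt
Snhg8, chr3:123508307-123508366, minus strand: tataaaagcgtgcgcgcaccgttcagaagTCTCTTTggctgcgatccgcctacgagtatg
Snhg15, chr11:6528731-6528790, minus strand: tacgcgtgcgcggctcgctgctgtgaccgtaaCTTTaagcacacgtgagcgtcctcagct
Rpl13a, chr7:45128716-45128775, minus strand: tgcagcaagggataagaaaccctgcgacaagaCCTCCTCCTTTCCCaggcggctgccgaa
A run of 8 or more such bases within 10 bases of the start, on the transcribed strand, was found for 6 of the 16 Snhg genes and Gas5 with a matched promoter (37.5%), for 8 of 18 ribosomal protein genes that contain a snoRNA (44.4%), for 4 of 31 other containing genes (12.9%) and for 2272 of all 13002 tested genes with a promoter (17.5%). Among the Snhg genes and Gas5 that rose 3 of 7 had such a run, and among those that did not 3 of 9. Snhg15, with the largest change of them, had a longest run of 4. The start shown for it is not that of its deposited transcript, whose 5′ end lies at chr11:6527759. For genes with more than 1 annotated start the one with the longest run was taken, which can raise these shares. A match describes the letters at an annotated start and not a site.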

How the data were processed

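RNA sequencing of 6 libraries of sorted microglia was used, 3 labelled KO and 3 labelled WT. The submitters' processing notes name STAR 2.7.1a, Trimmomatic 0.39, DESeq2 1.26.0 and HOMER 4.11.1, and the build mm10/GRCm38; they state no order and no parameters, nor any use of strand in counting, which leaves overlapping genes inseparable. The deposited table holds a signal per gene and library, reads scaled by the authors to a common sum. Values above 0 were whole multiples of 1 step per column within 0.1 for 99.8% or more of them, which gave back the whole reads. The authors' log2 fold change and adjusted p-value were deposited beside it. The columns named Treatment and Control were taken as KO and WT by name.

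The members and gene lists were chosen with earlier results of these data known. One row per symbol (117 repeats left out) with a mean above 1 was fitted on log2(value + 1) by limma-trend (limma 3.58.1 in R 4.3.3), two-sided, with Benjamini-Hochberg adjustment over 22472 genes and a threshold of 0.05; such fold changes understate those of low genes. Folds given as ratios are ratios of means. The limma fit was also run on simulated counts with known changes. These counts had the same dispersion for all genes and no effect shared by library letters. The run therefore does not show how limma performs on these data. Replicates were not alike within sampling noise (chi-square per gene 27.8 or more). The column letters match no number in the labels, but the deviations from the group means of same-letter libraries had correlations of 0.606 (A), 0.202 (B) and 0.305 (C) over 11597 genes, and an alternative therefore took the letters as pairs.

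Genes named are the Snhg genes and Gas5 with a mean above 20, the 8 highest of each snoRNA class, the 8 largest called changes with a mean above 20 and no overlap, Qk, the core and up to 4 called genes of each list, and the genes containing named snoRNAs; others were named after their values were seen. Containing genes were found by interval and strand in the deposited table, and exons from GENCODE M21, whose transcripts also gave the snoRNA sequences. Alternatives were other pseudocounts and filters, TMM factors, each library left out, the letter block, and edgeR 4.0.16, limma-voom and DESeq2 1.42.0 on the recovered reads.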

Additional observations from a re-analysis of the deposited data

How the results depend on the processing

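Of 126 tested members, 32 were called higher and 1 lower. Leaving out 1 library gave 18 to 27 higher, with 18 without KO B and 21 without KO C, and 6113 to 6732 called genes in the whole table. Snord calls fell to 7 of 11 with no filter, and ranged from 3 to 9 when a library was left out, against 8 to 10 of 12 for Snora and 7 to 8 of 9 for the Snhg genes and Gas5. With only genes of a mean above 20 fitted, the 6 Snord calls at that level all held, and the lower ones were not tested. With the letters as a replicate block 35 members were called, gaining Snhg16, Snord13, Snord47 and Snord78 and losing Snord19 and Snord59a. That setting called 9378 of all 22472 tested genes, where the main fit called 2529 higher and 5252 lower. Passing with the block is thus common among all genes. The log2 fold change of Snhg3, -0.10 as reported, was 0.032 with TMM factors, 0.017 under edgeR, 0.029 under limma-voom and 0.022 under DESeq2, and lay between -0.22 and 0.036 when a library was left out, above 0 without WT A. Other changes of sign were among genes that did not pass as reported, with these ranges over the libraries left out: Snord14e -0.62 to 0.10, above 0 without WT C; Snord14c -0.37 to 0.41, below 0 without KO C (-0.035) or WT A; Scarna6 -0.025 to 0.59, below 0 without WT B; Dkc1 -0.034 to 0.062, below 0 without KO A or WT C (-0.025); Hspa8 -0.0026 to 0.30, below 0 without WT A; and Snhg10 -0.15 to 0.52, below 0 without WT B. The cause of these changes was not tested. Of 1083 values of 68 named genes under 16 alternatives, 1003 kept direction and side of the threshold. With containing genes on either strand the median difference of snoRNA and host was -0.18, and with GENCODE spans, chosen after seeing the data, -0.21, as reported for all 100 pairs. Depth limits the rows under 20 normalised reads, where a few reads decide a value.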

Other observations

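Annotated snoRNA and scaRNA genes with other symbols were also in the deposited table, 1409 rows, of which 158 were tested; 22 of these rose by limma at an adjusted p under 0.05, and the median log2 fold change was 0.45. The 22 are 13.9%, near the 11.3% of all tested genes that rose. Of the 44 with a mean above 20 normalised reads 19 rose, 43.2%, beside 15.3% of all tested genes above that level.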
